A study of Homo sapiens with 6 samples.

Results

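Mitophagy is the selective removal of mitochondria by autophagy, in which a membrane sac closes around the organelle and carries it to the lysosome. It runs along several arms. In the PINK1 arm the kinase PINK1 builds up on damaged mitochondria and marks them with phosphorylated ubiquitin, which adaptor proteins such as OPTN, CALCOCO2 (NDP52), TAX1BP1 and SQSTM1 (p62) read. In the receptor arm BNIP3, BNIP3L (NIX) and FUNDC1 in the outer membrane, and PHB2 in the inner membrane, bind the LC3 proteins of the sac directly, and MAP1LC3B encodes one of these LC3 proteins. In skin, BNIP3 and BNIP3L are known from the clearance of mitochondria during the terminal differentiation of keratinocytes.

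These 10 genes, PINK1 with its ubiquitin-binding adaptors, the membrane receptors and MAP1LC3B, were picked by symbol from a table of 60671 genes, in which each had 1 row. The table holds 6 RNA-seq libraries of HaCaT, a spontaneously immortalised human keratinocyte line in wide use, labelled wild type. In the IFN-beta group (n = 3 libraries) serum-free high-glucose medium contained IFN-beta, a type I interferon, at 160 ng/mL for 24 h. In the control group (n = 3 libraries) the cells had the same medium for as long without it, so all 6 libraries come from cells kept without serum. HaCaT is 1 line grown without the other cells of skin. Whether replicates came from separate cultures is not in the labels, and a p-value here covers library-to-library spread that could be technical only.

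Values are FPKM as the authors deposited them, that is, scaled for the length of the gene and the depth of the library. Levels can be compared between genes only with caution, since some genes were listed far below related genes. In control libraries GABARAP averaged 0.811 FPKM beside 46.4 FPKM for GABARAPL2, and SDHA 2.97 FPKM beside 204 FPKM for SDHB. Whether reads in stretches shared with other genes were left out was not tested. A change is the difference of log2(FPKM + 0.5), IFN-beta minus control, with its SE, and a gene passed at a limma p, adjusted over the 15163 genes with a mean of at least 0.5 FPKM, under 0.05. Library totals inferred from the FPKM values lay between 25832158 and 30594527 reads. By reads recovered in the same way, each of the 10 genes rested on 423 to 24573 reads per library, and each was tested. The interferon effector genes MX1 and ISG15 had log2 changes of 7.07 and 5.18. The keratinocyte markers KRT5, KRT14, TP63, SFN and DSG3 summed to between 2706 and 2771 FPKM in IFN-beta libraries and between 2828 and 3083 FPKM in control libraries. Of these 5, TP63 (log2 change 0.41) and SFN (0.19) rose, KRT5 fell (-0.51), and KRT14 and DSG3 did not pass. Of the markers of other cells, DCN (fibroblast) and MLANA and TYR (melanocyte) were listed at 0 in all 6 libraries, and the endothelial PECAM1 and the leukocyte PTPRC each had a value above 0 in 1 of them. Others were present at low levels: the endothelial CDH5 rose, with 1.97 ± 0.101 FPKM in IFN-beta and 0.731 ± 0.0847 FPKM in control libraries (log2 change 1.01, limma adjusted p = 0.000273), as did the fibroblast COL1A1, with 2.69 ± 0.401 FPKM in IFN-beta and 1.80 ± 0.461 FPKM in control libraries (SD, n = 3 each; 0.48, limma adjusted p = 0.0391). The myeloid CD14, with 3.51 ± 0.274 FPKM in IFN-beta and 3.18 ± 0.678 FPKM in control libraries, and the melanocyte PMEL, with 1.57 ± 0.224 FPKM in IFN-beta and 1.41 ± 0.00470 FPKM in control libraries, did not pass. The fibroblast list of 5 genes summed to between 2.55 and 3.25 FPKM in IFN-beta and between 1.69 and 2.44 FPKM in control libraries, and the melanocyte list of 4 to between 1.44 and 1.87 FPKM in IFN-beta and between 1.41 and 1.43 FPKM in control libraries. The endothelial list of 3 summed to between 2.12 and 2.21 FPKM in IFN-beta and between 0.696 and 0.964 FPKM in control libraries, and the leukocyte list of 4 to between 3.29 and 3.86 FPKM in IFN-beta and between 2.77 and 3.96 FPKM in control libraries. The part of these markers in the results was not tested.

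The 10 genes did not move as 1 group. OPTN and BNIP3 rose by over 0.8 on the log2 scale, MAP1LC3B and SQSTM1 rose by less than 0.3, PHB2 and PINK1 fell by less than 0.3, and BNIP3L, FUNDC1, CALCOCO2 and TAX1BP1 did not pass. That is 6 of 10 called (4 higher and 2 lower), against a background of 42.4% of all genes tested, 22.5% higher and 19.9% lower. The median log2 change of the 10 genes was 0.03, and that of all genes tested was 0.01. Regardless of sign, the median size of change over all genes tested was 0.192, larger than the change of PHB2. Of all genes called lower, 72.9% fell by more than PINK1. The groups did not overlap in 8 of the 10 genes, a share to be read against 54% of all genes tested. With 10 genes, neither count stands far from its background, and the results below are about single genes. In bulk RNA a lower level in each cell and fewer cells holding the transcript cannot be told apart.

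**Figure D1:**
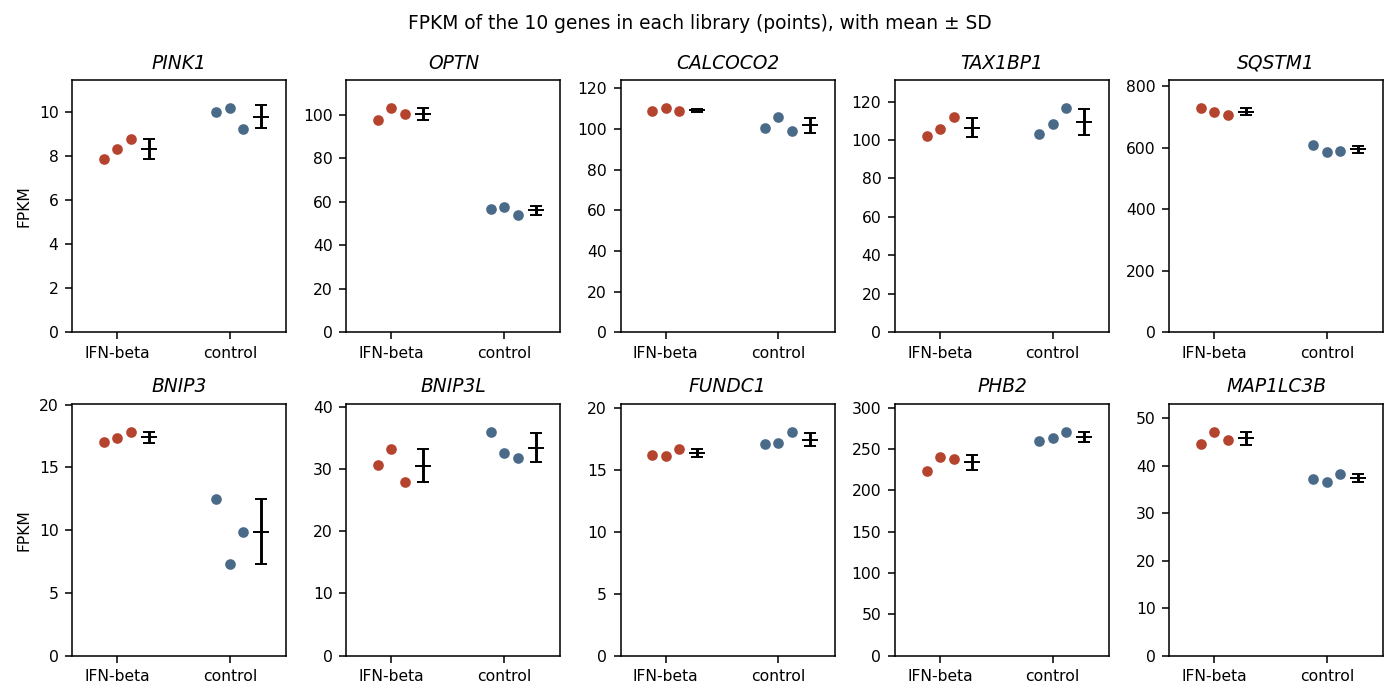
FPKM of each gene (vertical axes, from 0) in the 3 IFN-beta and the 3 control libraries (points), with the mean and SD of each group (bars). OPTN averaged 100 FPKM in IFN-beta and 55.9 FPKM in control libraries with little spread, BNIP3 was spread between 7.29 and 12.5 FPKM in the control libraries, and TAX1BP1 and BNIP3L overlapped between the groups.

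Promoter sequences are shown for 3 of the 4 genes that rose. They were chosen after the letters were seen, because those windows held stretches of letters that match known response elements. A set chosen this way cannot show a link between a match and a rise. They come from RefSeq (build GRCh38.p14), which matched 8 of the 10 genes in 13 windows of 300 bases, and PINK1 and BNIP3L had no entry. Printed are the 250 bases before the start site, 5′ to 3′ on the gene's strand: chr10:13099832-13100081 on the plus strand for OPTN, chr10:131981924-131982173 on the minus strand for BNIP3 and chr16:87392086-87392335 on the plus strand for MAP1LC3B. Capitals mark matches to the kappaB consensus, bound by NF-kB, in OPTN, and to the core of the hypoxia response element (HRE; ACGTG or GCGTG on either strand), bound by HIF, in BNIP3 and MAP1LC3B.
OPTN: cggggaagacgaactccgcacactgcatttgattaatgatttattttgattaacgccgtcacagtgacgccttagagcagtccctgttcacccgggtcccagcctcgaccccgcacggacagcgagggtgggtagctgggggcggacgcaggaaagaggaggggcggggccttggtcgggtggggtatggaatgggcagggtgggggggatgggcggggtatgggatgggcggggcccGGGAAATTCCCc
BNIP3: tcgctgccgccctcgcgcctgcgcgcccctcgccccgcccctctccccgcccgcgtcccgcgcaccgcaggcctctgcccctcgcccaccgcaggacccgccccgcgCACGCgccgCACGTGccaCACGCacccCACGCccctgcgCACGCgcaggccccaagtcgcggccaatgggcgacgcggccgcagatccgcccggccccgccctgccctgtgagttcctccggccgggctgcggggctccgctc
MAP1LC3B: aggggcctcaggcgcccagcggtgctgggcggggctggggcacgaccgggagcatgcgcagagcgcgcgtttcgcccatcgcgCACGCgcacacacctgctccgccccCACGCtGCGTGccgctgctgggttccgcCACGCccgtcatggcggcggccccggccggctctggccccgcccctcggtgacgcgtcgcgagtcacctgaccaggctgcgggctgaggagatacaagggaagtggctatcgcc

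The BNIP3 window held 5 separate stretches with the HRE core, starting between 143 and 104 bases before the start site, 1 of which reads the same on both strands and so matches on each. The MAP1LC3B window held 4. An HRE core stood in 48.4% of all 35116 promoter windows of this length, so its presence alone is common, and CALCOCO2 and 1 of the TAX1BP1 windows held 1 each. The kappaB consensus, added after the letters were seen, stood in 11.3% of all windows. It stood in both OPTN windows (2 overlapping matches in 1 stretch each, before the start site). In the FUNDC1 window it lay after the start site. The core of the interferon-stimulated response element (ISRE; GAAANNGAAA, in 3.6% of all windows) and the gamma-activated site (GAS; TTCNNNGAA, in 7.7%) matched in 0 of the 8 genes. The core of the antioxidant response element (ARE; TGACNNNGC, in 13.3%) matched in CALCOCO2 and MAP1LC3B. SQSTM1, which also rose, had no match to any of these motifs in its windows, while CALCOCO2, TAX1BP1 and FUNDC1, which did not pass, had matches. A match is a string of letters and no measured binding.

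OPTN, the ubiquitin-binding adaptor that also carries the kinase TBK1 to mitochondria, rose the most. It lies on chromosome 10 from 13099449 to 13138308 (ENSG00000123240) and had 97.7, 103 and 100 FPKM in IFN-beta libraries, against 56.6, 57.5 and 53.7 FPKM in control libraries. The lowest IFN-beta library stood 40.2 FPKM above the highest control library. The log2 change was 0.84 ± 0.041 (SE; 95% interval 0.74 to 0.93, limma adjusted p = 8.51e-07), and 3.88% of all genes tested rose by more. The 3 genes whose log2 levels followed OPTN most closely over the 6 libraries were HLA-E (Pearson r = 0.9999), STARD5 (0.9998) and TNFSF10 (0.9998), with log2 changes of 1.34, 1.63 and 2.48. These correlations rest on 2 groups of 3 libraries, and HLA genes resemble each other in sequence.

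The other adaptors that bind ubiquitin moved less or did not pass. SQSTM1, which gathers ubiquitinated cargo and also tethers the NRF2 repressor KEAP1, had the highest FPKM of the 10 genes. It had 728, 716 and 706 FPKM in IFN-beta libraries, against 609, 587 and 590 FPKM in control libraries. All IFN-beta libraries were above all control libraries, by at least 96.9 FPKM, and the log2 change was 0.27 ± 0.035 (limma adjusted p = 0.000397). SQSTM1 alone made up between 51.1% and 52.9% of the summed FPKM of the 10 genes in IFN-beta and between 47.7% and 49.0% in control libraries. CALCOCO2, the adaptor that recruits the autophagy-initiating kinase complex, had 109, 110 and 109 FPKM in IFN-beta libraries, against 101, 106 and 99.1 FPKM in control libraries. The groups did not overlap, but the log2 change of 0.10 ± 0.038 (95% interval 0.01 to 0.19) did not pass (limma adjusted p = 0.0625). It passed when each library was scaled to a common sum of FPKM (0.15, limma adjusted p = 0.0166) and without control replicate 2 (0.13, limma adjusted p = 0.0433).

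TAX1BP1, an adaptor that also restrains NF-kB signalling, had 102, 106 and 112 FPKM in IFN-beta libraries, against 103, 109 and 117 FPKM in control libraries. The groups overlapped across most of their range, with a log2 change of -0.04 ± 0.053 (95% interval -0.16 to 0.08, limma adjusted p = 0.601), which turned to 0.0080 with libraries scaled to a common sum and to 0.0083 without control replicate 3. OPTN had the lowest mean of the 4 adaptors in both groups, by a smaller margin in IFN-beta libraries. In IFN-beta libraries OPTN averaged 100 ± 2.61 FPKM, beside CALCOCO2 with 109 ± 0.866 and TAX1BP1 with 106 ± 4.93 FPKM, and OPTN and TAX1BP1 overlapped in range. In control libraries OPTN averaged 55.9 ± 1.95 FPKM, below every value of CALCOCO2 (102 ± 3.73) and TAX1BP1 (109 ± 6.76), so OPTN stood apart from both (SD, n = 3 each).

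BNIP3, an outer membrane receptor and a textbook target of the hypoxia factor HIF, rose about as much as OPTN but with a wider error. It lies on chromosome 10 from 131966455 to 131982013 (ENSG00000176171) and had 17.0, 17.3 and 17.9 FPKM in IFN-beta libraries, against 12.5, 7.29 and 9.86 FPKM in control libraries. The IFN-beta libraries lay close together, while the control libraries were spread, with 713, 423 and 493 reads behind their values. The log2 change was 0.82 ± 0.152 (95% interval 0.47 to 1.16, limma adjusted p = 0.00259), with 0.99 without control replicate 1 and 0.63 without control replicate 2. NDRG1, another HIF target, was also highest in control replicate 1 among the control libraries, as was DDIT4, and had 146, 174 and 131 FPKM in IFN-beta libraries, against 200, 120 and 122 FPKM in control libraries (log2 change 0.06, limma adjusted p = 0.82). The HIF list given below was not uniform in this. HIF1A, VHL, LDHA, PGK1, ANKRD37, P4HA1, ENO1 and ALDOA were highest in another control library, and ANKRD37 was lowest in control replicate 1. The rest of that list was highest in control replicate 1 among the control libraries. Whether a state of the cells in control replicate 1 bears on the BNIP3 value was not tested.

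The paralog BNIP3L, a receptor known from the clearance of mitochondria in maturing red blood cells, did not follow BNIP3. It had 30.6, 33.2 and 27.9 FPKM in IFN-beta libraries, against 36.0, 32.7 and 31.7 FPKM in control libraries. The groups overlapped and the log2 change of -0.13 ± 0.071 (95% interval -0.29 to 0.03) did not pass (limma adjusted p = 0.173). Its size ranged from -0.07 without IFN-beta replicate 3 to -0.19 without IFN-beta replicate 2. BNIP3L had a higher FPKM than BNIP3 in both groups. The ratio of BNIP3 to BNIP3L within a library was 0.556, 0.522 and 0.640 in IFN-beta libraries, against 0.346, 0.223 and 0.311 in control libraries. A single scaling factor per library cancels in such a ratio, while quantile normalization does not.

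FUNDC1, the outer membrane receptor known from mitophagy under low oxygen, had 16.3, 16.1 and 16.7 FPKM in IFN-beta libraries, against 17.1, 17.2 and 18.1 FPKM in control libraries. The groups stood apart by 0.353 FPKM, and the log2 change of -0.09 ± 0.049 (95% interval -0.20 to 0.02) did not pass (limma adjusted p = 0.17). PHB2, a prohibitin of the inner membrane that binds LC3 once the outer membrane is broken, had 224, 241 and 237 FPKM in IFN-beta libraries, against 259, 263 and 271 FPKM in control libraries. Every IFN-beta library was below every control library, and PHB2 fell by 0.18 ± 0.040 on the log2 scale (limma adjusted p = 0.00679). Its partner in the prohibitin ring, PHB, named here after its value was seen, had 207 ± 8.35 FPKM in IFN-beta and 230 ± 9.92 FPKM in control libraries (log2 change -0.15 ± 0.045, limma adjusted p = 0.0229).

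PINK1, the kinase that starts the ubiquitin arm, had the lowest mean of the 10 genes in both groups. It lies on chromosome 1 from 20633458 to 20651511 (ENSG00000158828) and had 7.85, 8.30 and 8.76 FPKM in IFN-beta libraries, against 9.97, 10.2 and 9.19 FPKM in control libraries. The groups stood 0.431 FPKM apart, and PINK1 fell by 0.22 ± 0.069 on the log2 scale (limma adjusted p = 0.0284). The call rests on several libraries: the limma adjusted p was 0.1 without IFN-beta replicate 1, 0.0717 without IFN-beta replicate 2, 0.0714 without control replicate 1 and 0.0968 without control replicate 2. PINK1 did not pass either with no filter on level (limma adjusted p = 0.0549) and with libraries scaled to a common sum (-0.18, limma adjusted p = 0.0685). Among the genes most like PINK1 over the 6 libraries were CRADD (Pearson r = 0.9922) and STAG3L4 (0.9908), with log2 changes of -0.34 and -0.35. Of the exonic bases of PINK1 39.4% lie opposite those of its antisense gene PINK1-AS, which averaged 1.30 FPKM in IFN-beta and 2.07 FPKM in control libraries (log2 change -0.51, limma adjusted p = 0.0051). Whether the counting used strand is not given in the sources used here, so reads of both genes in the shared stretch cannot be told apart.

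MAP1LC3B encodes the LC3B protein, which is joined to the lipid of the growing sac and is one of the LC3 proteins that adaptors and receptors bind. It had 44.7, 47.2 and 45.4 FPKM in IFN-beta libraries, against 37.1, 36.7 and 38.3 FPKM in control libraries. The groups stood 6.40 FPKM apart and MAP1LC3B rose, with a log2 change of 0.29 ± 0.041 (limma adjusted p = 0.000614). A copy, MAP1LC3B2, 98.5% identical over 411 aligned bases, averaged 2.86 FPKM in IFN-beta and 2.04 FPKM in control libraries (log2 change 0.40, limma adjusted p = 0.026), so the split of reads between the copies is uncertain. BNIP3 has a pseudogene, BNIP3P1, 97.4% identical over 657 bases, which stood at no more than 0.151 FPKM. SQSTM1 shares 20.7% of its exonic bases with the opposite gene MRNIP, which averaged 32.0 FPKM in IFN-beta and 26.3 FPKM in control libraries (log2 change 0.27, limma adjusted p = 0.0157). With strand use not given, reads of SQSTM1 and MRNIP in the shared stretch cannot be told apart either.

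**Figure D2:**
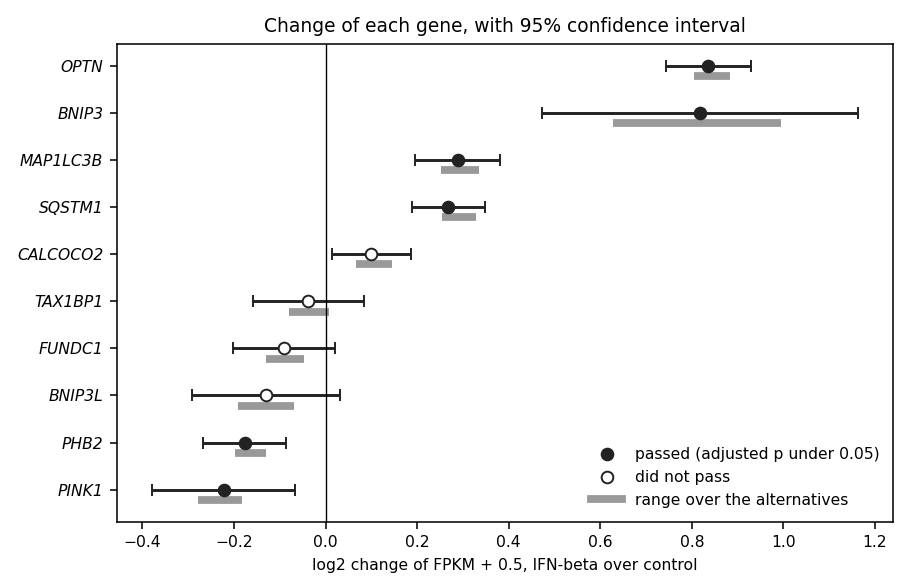
Log2 change of FPKM + 0.5, IFN-beta over control (horizontal axis), of each gene with its 95% confidence interval (black) and, below it, the range over the 17 alternatives (grey). OPTN and BNIP3 stood near 0.8, with the BNIP3 interval running from 0.47 to 1.16, while TAX1BP1 is the gene whose grey range crosses 0.

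Between members, the FPKM as listed spanned an 86.3-fold range in IFN-beta libraries and a 60.9-fold range in control libraries. The limit on comparing genes given above holds here too. In both groups SQSTM1 and PHB2 led and PINK1 was last, and BNIP3 changed its place. In IFN-beta libraries every BNIP3 value was above every FUNDC1 value, while in control libraries every BNIP3 value was below every FUNDC1 value and the range of BNIP3 overlapped that of PINK1. The ratio of OPTN to CALCOCO2 was 0.898, 0.933 and 0.920 in IFN-beta libraries, against 0.562, 0.541 and 0.542 in control libraries. The ratio of OPTN to TAX1BP1 was 0.958, 0.973 and 0.896 in IFN-beta libraries, against 0.549, 0.529 and 0.461 in control libraries. In both ratios, and in that of BNIP3 to BNIP3L, the groups did not overlap, with log2 differences of 0.74 ± 0.024, 0.88 ± 0.085 and 0.98 ± 0.209 (SE).

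The exact two-sided permutation p was 0.1 for each of these 3 ratios, the smallest that 3 against 3 libraries allow, and 0.167 adjusted over the 5 ratios computed. SQSTM1 over MAP1LC3B, the cargo adaptor over its partner in the sac, was 15.7 ± 0.567 in IFN-beta and 15.9 ± 0.501 in control libraries (SD, n = 3 each), with a log2 difference of -0.02 ± 0.040 (exact permutation p = 0.7, adjusted 0.7). PINK1 over PHB2 was 0.0355 ± 0.00128 in IFN-beta and 0.0370 ± 0.00264 in control libraries (SD, n = 3 each), with a log2 difference of -0.06 ± 0.068 (exact permutation p = 0.4, adjusted 0.5). The ranges of these last ratios overlapped between the groups.

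**Figure D3:**
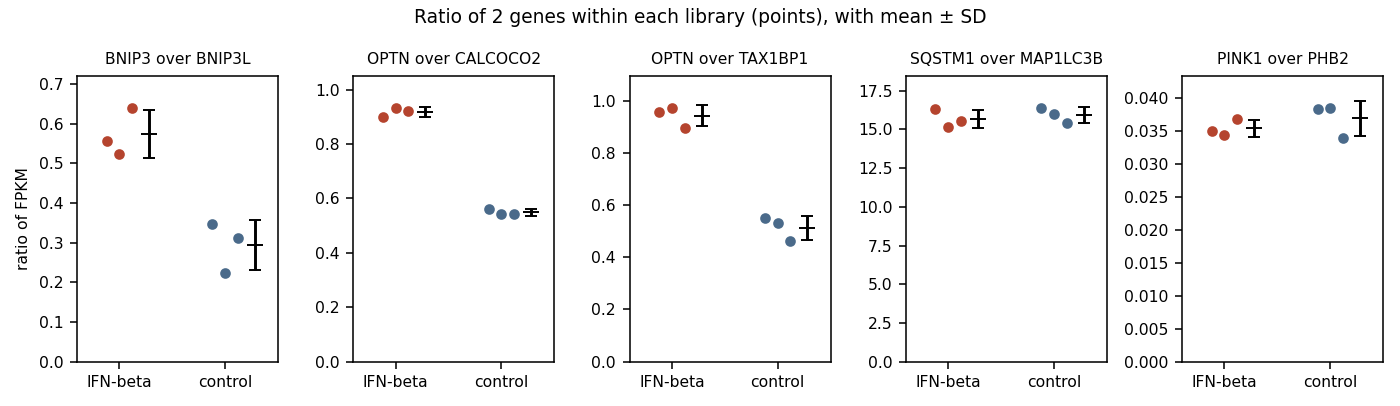
Ratio of the FPKM of 2 genes within each library (vertical axes, from 0; points), with the mean and SD of each group (bars), for IFN-beta and control libraries. The ratio of OPTN to CALCOCO2 averaged 0.917 in IFN-beta and 0.549 in control libraries, while that of SQSTM1 to MAP1LC3B averaged 15.7 in IFN-beta and 15.9 in control libraries.

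The genes around these members moved both ways as well. The counts per list from here on are to be read against 22.5% higher and 19.9% lower of all genes tested. Of the 26 tested genes that regulate the PINK1 arm, 9 fell and 1 rose, with a median log2 change of -0.09. Those that fell were PARL, TOMM20, TOMM22, MFN1, MFN2, OMA1, HTRA2, VDAC1 and VDAC3. The list of mitochondrial matrix and inner membrane genes, given below, likewise held falls and no rises among its calls, so the falls were not particular to this list. The riser was USP15, a deubiquitinase that opposes mitophagy, with 53.4 ± 1.39 FPKM in IFN-beta and 37.7 ± 3.08 FPKM in control libraries (log2 change 0.50 ± 0.059). OMA1, the inner membrane protease that cuts PINK1 under some conditions, had 16.3 ± 1.87 FPKM in IFN-beta and 22.5 ± 1.31 FPKM in control libraries (-0.46 ± 0.081), and the intermembrane protease HTRA2 had a log2 change of -0.42. VDAC2, a pore of the outer membrane, did not pass (-0.03, limma adjusted p = 0.559).

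TBK1, the kinase that phosphorylates OPTN and SQSTM1, and its kin were higher where they passed. Of 5 genes of this list 4 rose and 0 fell, with a median log2 change of 0.30, against 22.5% of all genes tested higher. A list of 5 genes, chosen with earlier results known, is too short to read as a group. TBK1 itself had 39.6, 39.5 and 37.8 FPKM in IFN-beta libraries, against 30.6, 33.9 and 37.3 FPKM in control libraries (log2 change 0.20 ± 0.068, limma adjusted p = 0.0397), and was named after its values were seen. The related kinase IKBKE had a log2 change of 0.48 and the TBK1 adaptor AZI2 one of 0.45, while the adaptor TBKBP1, at 0.948 ± 0.213 FPKM in IFN-beta and 0.683 ± 0.227 FPKM in control libraries, did not pass (limma adjusted p = 0.235).

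Among 20 other receptors and adaptors of mitophagy and related organelle autophagy, 7 rose and 3 fell (median log2 change 0.03). BCL2L13, an outer membrane receptor of the BCL2 family, had 66.3, 68.6 and 66.6 FPKM in IFN-beta libraries, against 44.8, 44.8 and 44.9 FPKM in control libraries. The groups stood far apart, with a log2 change of 0.58 ± 0.036 (limma adjusted p = 4.23e-06). SPATA18, which takes part in the removal of oxidised mitochondrial proteins, had a log2 change of 0.60 from low levels, 1.11 ± 0.186 FPKM in IFN-beta and 0.557 ± 0.0612 FPKM in control libraries. FUNDC2, the paralog of FUNDC1, fell (-0.31 ± 0.082, limma adjusted p = 0.014), as did NIPSNAP2, which marks damaged mitochondria for adaptors (-0.16). The large ubiquitin ligase HUWE1 did not pass (0.04).

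Of the 5 tested relatives of LC3B, 2 rose and 1 fell. GABARAPL1, of the branch of the family that binds many receptors, had 70.0 ± 1.77 FPKM in IFN-beta and 58.5 ± 3.55 FPKM in control libraries (log2 change 0.26 ± 0.050), the copy MAP1LC3B2 is given above, and GABARAPL2 fell (-0.20 ± 0.051). In the machinery that joins these proteins to lipid 3 of 11 genes rose and 2 fell. ATG16L1, which places the joining enzyme on the membrane, rose by 0.50 ± 0.041, while its partner ATG5 fell by 0.53 ± 0.052, with 16.1 ± 0.425 FPKM in IFN-beta and 23.6 ± 1.10 FPKM in control libraries. The protease ATG4A had a log2 change of 0.26 and its relative ATG4C one of -0.32, and the conjugating enzyme ATG3 did not pass (-0.09).

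Of 20 genes of autophagy initiation, 6 rose and 2 fell (median 0.10). RUBCN, which encodes Rubicon, an inhibitor of autophagosome maturation, had the highest change, with 19.4 ± 0.276 FPKM in IFN-beta and 10.8 ± 0.0914 FPKM in control libraries (log2 change 0.82 ± 0.048, limma adjusted p = 2.93e-06). The initiating kinase ULK2 rose by 0.38, and the scaffold RB1CC1 (FIP200), which CALCOCO2 binds, fell by 0.20. For fusion with the lysosome 5 of 16 genes rose and 3 fell (median 0.04), with the tethering subunits VPS18 at 0.41 and VPS41 at -0.31 and the fusion protein VAMP8 at -0.18, all on the log2 change scale. LAMP1, an abundant lysosomal membrane protein, did not pass (-0.06).

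Genes of the factors known to control these members moved both ways, or mostly did not pass. Of 22 HIF targets and regulators 6 rose and 5 fell (median 0.07). VEGFA, the vascular growth factor, had 95.5, 104 and 105 FPKM in IFN-beta libraries, against 47.9, 46.3 and 45.1 FPKM in control libraries (log2 change 1.12 ± 0.048), and CA9, a carbonic anhydrase, had a log2 change of 0.62 at 3.38 ± 0.579 FPKM in IFN-beta and 2.06 ± 0.677 FPKM in control libraries, with ranges that overlapped. ARNT, the partner subunit of HIF, fell by 0.45 and DDIT4, a stress-induced inhibitor of mTOR, by 0.48. Of 13 tested NRF2 targets and regulators, which include the factor that controls SQSTM1, 3 rose and 4 fell (median -0.02), with TXNRD1 at 0.24, NFE2L2 itself at 0.15 and GCLC at -0.27. Of 12 FOXO and TFEB regulators 2 rose and 1 fell (median 0.03), with FOXO1 at 0.33, RPTOR at 0.18 and MITF at -0.39. Of 17 genes of the mitochondrial matrix and inner membrane 8 fell and 0 rose (median -0.10), against 19.9% lower and 22.5% higher of all genes tested. COX4I1 (-0.30 ± 0.034) and UQCRC2 (-0.30 ± 0.037) fell the most, and the chaperone HSPD1 did not pass (0.06). These are RNA levels, and the removal of mitochondria was not measured.

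**Figure D4:**
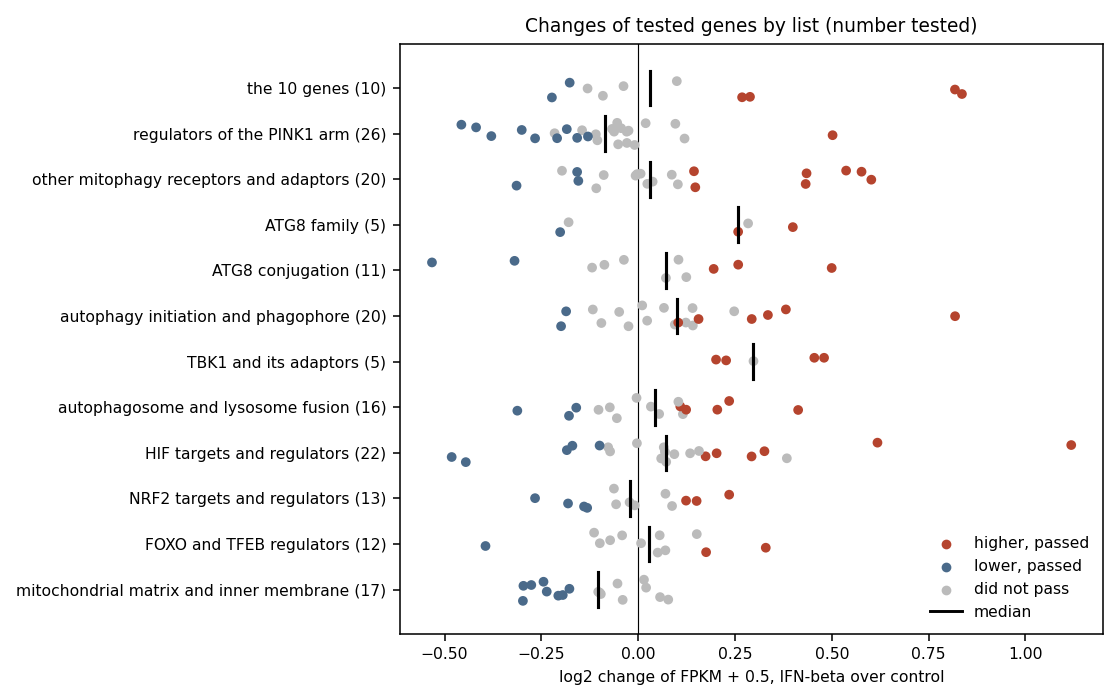
Log2 change of FPKM + 0.5, IFN-beta over control (horizontal axis), of each tested gene of the 10 genes and of 11 mitophagy, autophagy, regulator and mitochondrial lists (rows, number tested in brackets), coloured by whether it passed and in which direction, with the list median (black bar). Most lists hold genes on both sides of 0, the 5 genes around TBK1 lie between 0.20 and 0.48, and the highest points in these rows are VEGFA at 1.12, OPTN at 0.84 and RUBCN and BNIP3 at 0.82.

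The deposited table tags 72 genes with the KEGG term for animal mitophagy, 9 of them members described here. Of its 67 tested genes 17 rose and 14 fell (median log2 change -0.03), from -0.53 in ATG5 to 0.84 in OPTN. The balance of directions depends on scaling: over all genes 53.2% of calls were higher, against 63.2% with libraries scaled to a common sum and 41.3% with quantile normalization. Among the 10 genes scaling to a common sum gave 5 higher and 1 lower call, and the 4 rises of OPTN, BNIP3, MAP1LC3B and SQSTM1 and the fall of PHB2 passed under all 17 alternatives.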

How the data were processed

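RNA was sequenced from 6 HaCaT libraries. FPKM values were deposited by the authors in 1 table of 60671 genes, and its 6 value columns were matched to the sample titles by name. Per the labels' protocols RNA came from an RNeasy kit (TRIzol is also named), and CLC Genomics Workbench 11.0.1 is named with no step. Aligner, counter and strand use: not given in the sources used here. The submitters' processing notes list GRCm38 and mm10, both of mouse, but all 60671 identifiers are human. Of the 58453 identifiers also in GENCODE release 29 (GRCh38), 76.89% had the same chromosome, start and end, so coordinates are as deposited, with the build inferred.

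The test was limma 3.58.1 (R 4.3.3) on log2(FPKM + 0.5) (trend, two-sided, Benjamini-Hochberg over 15163 genes with a mean of at least 0.5 FPKM). On this scale low genes show too small a change. Whole reads were recovered from the FPKM steps (a whole total per library and the smallest whole length per gene that gave reads within 0.01 of whole) for 30506 of 30507 genes above 0. For low genes the true number may be a multiple of the one given. Exon sharing came from GENCODE release 29 and near-identical copies from BLAST 2.17.0 (at least 90% identity over 200 bases). Ratios were tested with scipy 1.17.1. The fit was also run on simulated reads with known changes and the same dispersion for every gene, so that run gives no error rate for these data.

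The members and lists were chosen with earlier results of these data known. Named are the members, up to 2 called genes per direction and 1 uncalled gene by level from each list, partners of members, MX1, ISG15, and the 3 genes most correlated with the called members of largest rise and fall. Some genes the rule covers are left out for length, and a few are not reported here. Protein sequences were not analysed here. Alternatives were a pseudocount of 0.1 or 1, no filter or a mean of at least 2 FPKM, scaling to a common sum, median-of-ratios size factors, quantile normalization, robust eBayes, eBayes without trend, a block for replicate number, leaving out each library in turn, and limma voom on the recovered reads.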

Additional observations from a re-analysis of the deposited data

How the results depend on the processing

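Over the 17 alternatives 5 to 6 of the 10 genes were called, 4 to 5 higher and 1 to 2 lower. Of the called genes PINK1 alone lost its call: 1 gene was called lower without the filter on level, with libraries scaled to a common sum and with the replicate block, and 1 to 2 with a library left out. The TAX1BP1 change reversed to 0.0080 with a common sum and lay between -0.0797 and 0.0083 with a library left out; the cause was not tested. Over all genes 5166 to 6874 were called. The replicate numbers share no stated origin, and deviations of same-numbered libraries correlated with r of -0.052, -0.098 and -0.058, so they were not taken as pairs. With the block PINK1 had an adjusted p of 0.0619, and 5817 genes were called. No scaling moved the median of all genes by over 0.1, with shifts of 0.044 with a common sum and -0.06 with quantile normalization. The 5 ratios kept their direction with each library left out and with 0.5 added to both values.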
